A study of Mus musculus with 2 samples.

Results

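Transcripts of 10 genes known from myeloid cells were followed in single PK44 cells of the mouse yolk sac: *Lyz2*, *Csf1r*, *Tyrobp*, *Fcer1g*, *Fcgr3*, *Coro1a*, *Laptm5*, *Cx3cr1*, *Cebpa* and *Mpo*. These 10 members, of 23154 genes with a row in the count tables, were chosen by name with their counts in these same cells already known, so their counts are a description and carry no test. Of the 10 members, 8 had a count in at least 1 cell, against 13206 of the 23154 genes. The same holds for *Runx1* and *Spi1*, with which the members were paired.

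PK44 cells carry the surface phenotype CD41-CD43-CD45-CD31+CD201+Kit+CD44+ and were sorted from the yolk sac of E10.0 embryos, the stage at which such cells are taken as hemogenic endothelium. Single cells were processed by modified STRT-seq, which tags every cell with a barcode and every molecule with a UMI. The 87 cells make up replicate 1 (43) and replicate 2 (44) of a single condition, with no other genotype, treatment or stage. Replicate 1 had 8932527 counts, with a median of 141577 per cell, and replicate 2 had 12706360, with a median of 238898.5. The cells were picked by hand under a microscope after sorting. No barcode occurred in both libraries, and the labels do not say whether the libraries came from separate embryos. Between the libraries, chi-square divided by its degrees of freedom was 97.0 over 11957 genes against counting noise alone, a value that includes the spread between cells.

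Hemogenic endothelial cells are vessel-lining cells that turn into blood cells. During this step endothelial genes are lost and blood genes appear under *Runx1*, the transcription factor needed for the transition, and *Spi1*, which encodes PU.1, a factor of the Ets family that drives myeloid genes. Blood progenitors often hold low levels of lineage genes before they commit to a lineage, which is called priming, and the yolk sac is known as a source of the first macrophages and of erythro-myeloid progenitors. The members fall into 4 roles. *Lyz2*, which encodes lysozyme, and *Mpo*, which encodes myeloperoxidase, are antimicrobial enzymes. *Csf1r* and *Cx3cr1* are receptors of macrophages, *Fcgr3* is an Fc receptor, and *Fcer1g* and *Tyrobp* encode the ITAM adaptors through which such receptors signal. *Coro1a*, an actin regulator, and *Laptm5*, a lysosomal membrane protein, are found across leukocytes. *Cebpa* is the transcription factor of granulocyte and monocyte progenitors.

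The members were found in different numbers of cells, and 2 of them were not detected at all. *Laptm5* reached 10 counts in 43 of 87 cells, *Coro1a* in 28, *Fcer1g* in 23, *Lyz2* in 16, *Fcgr3* in 12, *Mpo* in 7, *Tyrobp* in 6 and *Csf1r* in 1. *Cx3cr1* and *Cebpa* had 0 counts in all 87 cells, which allows at most 0.139 CPM (counts scaled to a common total) over both libraries and a share of cells with a count of up to 4.15% (95% exact limit), counting error only.

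*Lyz2* (chr10:117277331-117282321, minus strand, GRCm38) had 573 counts in replicate 1 and 349 in replicate 2, or 45.8 ± 25.9 CPM (SD, n = 2 libraries). In replicate 1, 9 of 43 cells had 10 or more counts (20.9%, 95% exact interval 10.04% to 36.0%), and in replicate 2, 7 of 44 (15.9%, 6.64% to 30.1%). Among these 16 cells the lowest held 19 counts, the median was 44.5 and the highest, cell 47 of replicate 1, held 211. The shares of the libraries lay within each other's intervals. Its near-identical neighbour *Lyz1*, with which it could share reads, had 2 counts in replicate 1 and 0 in replicate 2.

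*Mpo* (chr11:87793581-87804413, plus strand) differed between the libraries. It had 425 counts in replicate 1, with 10 or more in 6 of 43 cells (13.95%, 5.30% to 27.9%), and 12 counts in replicate 2, where 1 of 44 cells reached 10 (2.27%, 0.0575% to 12.02%). The highest cell, cell 16 of replicate 1, held 176 counts, 41.4% of that library's *Mpo*. The mean of 24.3 ± 33.0 CPM (SD, n = 2 libraries) therefore rested on replicate 1.

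*Fcer1g* (chr1:171229572-171234365, minus strand) was found in more cells than *Tyrobp*, and it stood higher in replicate 2. It had 586 and 1617 counts in replicates 1 and 2, or 96.4 ± 43.6 CPM (SD, n = 2 libraries), with 10 or more counts in 8 of 43 cells (18.6%, 8.39% to 33.4%) and in 15 of 44 cells (34.1%, 20.5% to 49.9%). *Fcgr3* (chr1:171051174-171064935, minus strand), the Fc receptor chain that pairs with it, reached 10 counts in 3 cells of replicate 1 and 9 cells of replicate 2, at 30.0 ± 15.5 CPM. Its paralogs *Fcgr2b* and *Fcgr4* were at 0 counts in both libraries, and *Fcgr1* had 0 and 48. *Tyrobp* (chr7:30413760-30417585, plus strand) reached 10 counts in 2 and 4 cells, and 1 cell of each library held most of it, with 79.9% of the counts of replicate 1 in cell 40 and 67.3% of those of replicate 2 in cell 62. *Hcst*, the neighbouring adaptor gene, had 1 and 14 counts.

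*Csf1r*, the receptor that marks the macrophage lineage, had 50 counts in replicate 1, of which 48 were in cell 40, and 7 counts in replicate 2, all in cell 63. Cell 40 stood apart from the other cells of its library, with 8 members at 10 or more counts, where no other cell of replicate 1 had more than 4. It held 78 counts of *Lyz2*, 151 of *Tyrobp*, 65 of *Fcgr3*, 52 of *Mpo* and 116 of *Runx1*, but 0 of *Spi1* and 1 of *Kdr*, the endothelial VEGF receptor, among 459272 counts in all. At that depth, 0 counts allow at most 6.53 CPM. In replicate 2 the cell with most members was cell 62, the deepest of that library, with 6 members at 10 or more counts. Unlike cell 40 it held *Kdr*, at 271 counts. *Cdh5*, the gene of VE-cadherin, the cell adhesion molecule of endothelium, was in both, at 68 counts in cell 40 and 696 in cell 62.

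*Coro1a* (chr7:126699773-126707787, minus strand) reached 10 counts in 15 cells of replicate 1 and 13 of replicate 2, at 170.2 ± 30.9 CPM. Its locus overlaps *Bola2* on the opposite strand, which had 4991 and 5574 counts, and whether the counting used strand is not given in the sources used here, so *Coro1a* counts are uncertain to that extent. The same holds for *Csf1r*, which *Hmgxb3* (154 and 346 counts) overlaps, and for the 0 of *Cx3cr1*, whose locus overlaps 5 genes of the tables, *Wdr48* and *Csrnp1* among them. *Laptm5* (chr4:130913125-130936141, plus strand) reached 10 counts in 21 and 22 cells, 43 of 87 in all (49.4%, 38.5% to 60.4%), at 165.6 ± 57.1 CPM. *Runx1* (chr16:92601466-92826149, minus strand) did so in 22 and 17 cells, at 218 ± 116 CPM, and *Spi1* (chr2:91082390-91115756, plus strand) in 9 cells of each library, at 104.4 ± 63.7 CPM. Of the 2 members not detected, *Cx3cr1* lies at chr9:119901616-120069879 on the minus strand and *Cebpa* at chr7:35119293-35121928 on the plus strand.

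**Figure D1:**
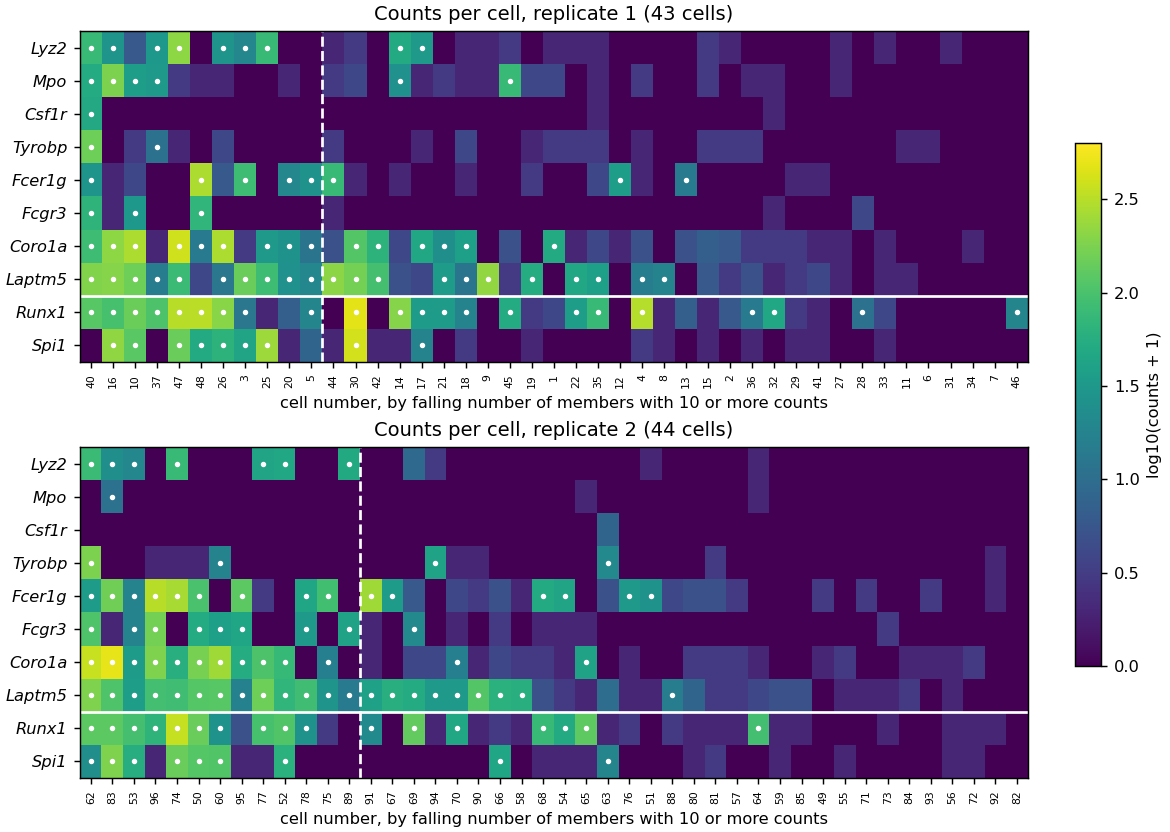
Counts of the 8 detected members, *Runx1* and *Spi1* in each cell (columns, with the cell number) of replicate 1 (top) and replicate 2 (bottom), as log10(counts + 1) in colour, with a white point at 10 or more counts. The dashed line closes the cells with at least 3 members at 10 or more counts, 11 of 43 and 13 of 44, and the solid line sets *Runx1* and *Spi1* apart.

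The number of members at 10 or more counts was spread over the cells. No member reached 10 counts in 31 cells, 1 did in 20 cells, 2 in 12 cells and at least 3 in 24 cells, here called the myeloid-gene class (11 cells, or 25.6%, of replicate 1 and 13 cells, or 29.5%, of replicate 2). Of these 24, 12 cells had 4 or more. The class was deeper than the rest, with a median of 352725 against 98687 counts per cell in replicate 1 and 410682 against 208354 in replicate 2, so membership moved with depth. In replicate 1, 8 cells had fewer counts than the shallowest cell of the class, and in replicate 2, 12 cells did. Just inside the threshold of 10 lay *Mpo* in cell 83 of replicate 2 and *Tyrobp* in cell 37 of replicate 1, each at 10 counts, and just outside it *Laptm5* in cell 63 at 9 counts and *Lyz2* in cell 69 at 8 counts, both in replicate 2. After thinning to 20000 counts per cell, for which 1 cell of replicate 1 was too shallow, *Lyz2* had a count in 9 of 42 and 6 of 44 cells. *Mpo* then had a count in 10 of 42 and 0 of 44 cells, and *Fcer1g* in 10 of 42 and 19 of 44.

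To see whether genes of a settled myeloid cell accompanied the members, 2 lists of lineage genes were read over all 87 cells. Of 20 macrophage genes, 9 had a count. *Adgre1*, the gene of the F4/80 antigen, the complement genes *C1qa*, *C1qb* and *C1qc*, and *Aif1*, *Ctss*, *Trem2*, *Timd4*, *Ms4a7*, *Cd163* and *Mpeg1* were at 0. Summed over each library the list had 186 and 243 CPM, led by *Mrc1*, a scavenger receptor gene that sinus-lining endothelium also expresses, with 3180 counts. Of 18 genes of granulocyte and monocyte progenitors, 4 had a count and 14 were at 0, among them *Elane*, *Ctsg*, *Ms4a3* and *Cebpe*. Their sum was 72.3 and 33.1 CPM, led by *Csf3r*, the G-CSF receptor gene, with 508 counts, and *Prtn3*, which encodes proteinase 3 of granules, followed with 320 counts in replicate 1 and 102 in replicate 2. *Ptprc*, the gene of the CD45 antigen the cells were sorted against, had a count in 1 cell of replicate 1 (14 counts) and in 2 cells of replicate 2 (43 counts).

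Co-expression with *Spi1* and *Runx1* was then read from cells with 10 or more counts of both genes. Most *Lyz2* cells held each of the factors. Of the 16 cells with 10 or more counts of *Lyz2*, 14 (87.5%) also had 10 or more of *Runx1*, 8 of 9 in replicate 1 and 6 of 7 in replicate 2, against 25 of the 71 other cells (35.2%). For *Spi1* the counts were 11 of 16 (68.8%), 6 of 9 and 5 of 7, against 7 of 71 other cells (9.86%). On the CPM scale, at 50 CPM or more of both genes, the share of *Lyz2* cells with *Spi1* was 60%. Cells with *Lyz2* were deep, with a median of 245523 counts in replicate 1 against 73544 in cells without a *Lyz2* count, and the part of depth in these joint counts was not tested beyond the CPM scale.

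*Fcer1g* went with the 2 factors less often than *Lyz2* did, though the difference was not tested. Of 23 *Fcer1g* cells, 14 (60.9%) had 10 or more counts of *Runx1*, 4 of 8 and 10 of 15 in the 2 libraries, against 18 of 35 and 7 of 29 other cells, so replicate 1 had no excess. For *Spi1* there were 7 (30.4%), 2 of 8 and 5 of 15, against 7 of 35 and 4 of 29 other cells. *Lyz2* and *Fcer1g* met in 6 cells, 2 of replicate 1 and 4 of replicate 2, which is 37.5% of the *Lyz2* cells and 26.1% of the *Fcer1g* cells. Among the 71 cells without 10 counts of *Lyz2*, 17 (23.9%) had 10 or more of *Fcer1g*.

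All 7 *Mpo* cells had 10 or more counts of *Runx1*, and 5 of the 7 had 10 or more of *Lyz2*, 4 of 6 in replicate 1 and the single cell of replicate 2. *Spi1* was there in 3 of the 7. *Coro1a* cells held *Spi1* in 15 of 28 cells, against 3 of the 59 others, and *Runx1* in 22 of 28. *Laptm5* cells held *Spi1* in 15 of 43 and *Runx1* in 27 of 43. Of the 12 *Fcgr3* cells, 8 had *Fcer1g*, 2 of 3 in replicate 1 and 6 of 9 in replicate 2, 11 had *Laptm5*, 10 had *Runx1* and 6 had *Spi1*. The *Tyrobp* cells were 6, of which 2 had *Fcer1g* and 3 had *Spi1*.

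By number of members, cells at *Runx1* of 10 or more counts made up 5 of the 31 cells without a member, 7 of 20 with 1, 8 of 12 with 2 and 19 of 24 in the myeloid-gene class. For *Spi1* the numbers were 0 of 31, 2 of 20, 2 of 12 and 14 of 24. In the class, 13 cells held both factors and 4 held neither at that count. Depth followed the same order, with a median of 128053 counts in cells without a member and 371870.5 in the class.

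Rank correlations of CPM over the cells of a library were weak to moderate, from -0.27 to 0.51 over 45 pairs of these genes in replicate 1 (43 cells) and from -0.15 to 0.59 over 36 pairs in replicate 2 (44 cells). Cells of a library share its preparation and differ in depth, so no p is given. Counts of 1 to 9 enter these ranks and the order of genes by likeness to *Lyz2*. In replicates 1 and 2, *Lyz2* had such counts in 14 and 4 cells, and 10 or more in 9 and 7. The pair of *Coro1a* and *Spi1* stood at 0.45 and 0.59 in the 2 libraries, *Lyz2* and *Spi1* at 0.27 and 0.23, *Lyz2* and *Runx1* at 0.19 and 0.34, and *Lyz2* and *Fcer1g* at -0.13 and 0.00094. Among 5859 genes with 10 or more counts in at least 5 cells of each library, the genes most like *Lyz2* by the mean of both correlations were *Cyb5r4* (0.48 and 0.52), *Rpl38* (0.42 and 0.52), *Pebp1* (0.37 and 0.56), *Oxct1*, *Snrpd2*, *Eif5a*, *Eef1e1*, *Med9*, *Ilf2* and *Spc24*, the last at 0.40 and 0.47. *Rpl38* and *Eif5a*, a ribosomal protein gene and a translation factor gene, were found in most cells. *Runx1* ranked 392 and *Spi1* 527 in this order.

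**Figure D2:**
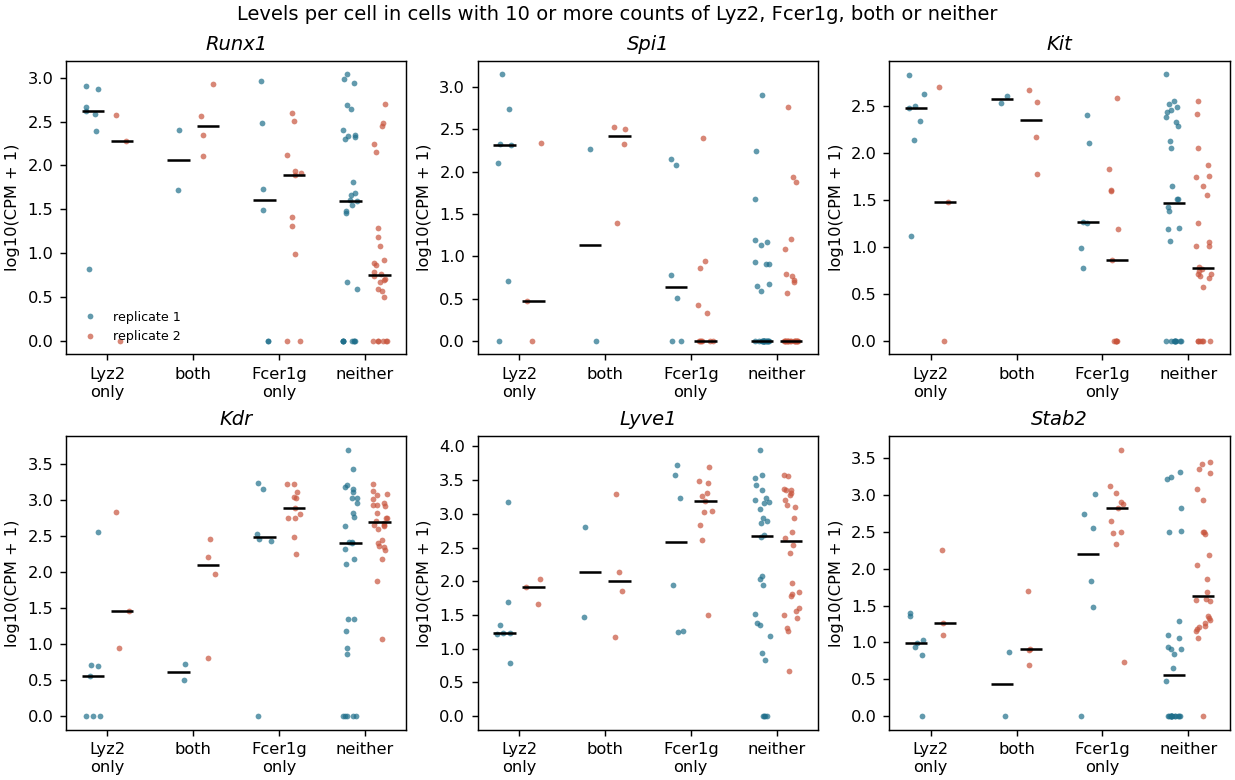
CPM per cell as log10(CPM + 1) of *Runx1*, *Spi1*, *Kit*, *Kdr*, *Lyve1* and *Stab2* in cells with 10 or more counts of *Lyz2* only (10 cells), of both *Lyz2* and *Fcer1g* (6), of *Fcer1g* only (17) and of neither (54). Points are cells, black lines are medians of the plotted values in a library, and the *Kdr* medians of the *Lyz2* only cells lie below those of the *Fcer1g* only cells.

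*Lyz2* and *Fcer1g* differed in the endothelial genes that accompanied them, and the 4 classes of cells that they define were read with no test, since they were chosen after their values had been seen. In cells with *Lyz2* but not *Fcer1g*, *Kdr* reached 10 counts in 2 of 10 cells, with a median of 2.56 CPM in the 7 cells of replicate 1 and 28.1 CPM in the 3 cells of replicate 2. In cells with *Fcer1g* but not *Lyz2* it did so in 16 of 17 cells, with medians of 307 CPM in 6 cells of replicate 1 and 775 CPM in 11 cells of replicate 2. The 54 cells with neither had *Kdr* medians of 254 and 495 CPM. *Lyve1* and *Stab2*, receptors for hyaluronan found on lymphatic and sinusoidal endothelium and early on yolk sac vessels, were also highest in the *Fcer1g* only cells. *Stab2* reached 10 counts in 13 of the 17 *Fcer1g* only cells, with medians of 211 and 668 CPM. It did so in 1 of the 10 *Lyz2* only cells, with medians of 8.69 and 17.6 CPM. Of the 54 cells with neither, 20 reached 10 counts of *Stab2*, with medians of 2.70 and 42.5 CPM. The *Lyz2* only median thus lay above that of the cells with neither in replicate 1 and below it in replicate 2. *Lyve1* had medians of 889 and 1545 CPM in the *Fcer1g* only cells and 16.3 and 82.5 CPM in the *Lyz2* only cells.

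The 6 cells with both *Lyz2* and *Fcer1g* were like the *Lyz2* only cells in some of these genes and not in others. They had 10 or more counts of *Runx1* in 6 of 6, of *Kit* in 6 of 6 and of *Spi1* in 5 of 6 cells, and 10 or more counts of *Stab2* in 1. *Kdr* reached 10 counts in 3 of the 6, all of replicate 2. *Lyve1* did so in 5 of the 6, beside 5 of 10 *Lyz2* only and 14 of 17 *Fcer1g* only cells, with medians of 336 and 105 CPM. *Cdh5* reached 10 counts in all 6 and in 9 of the 10 *Lyz2* only cells, at lower medians in the latter (132.5 and 158 CPM) than in cells with neither gene (504 and 848 CPM).

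**Figure D3:**
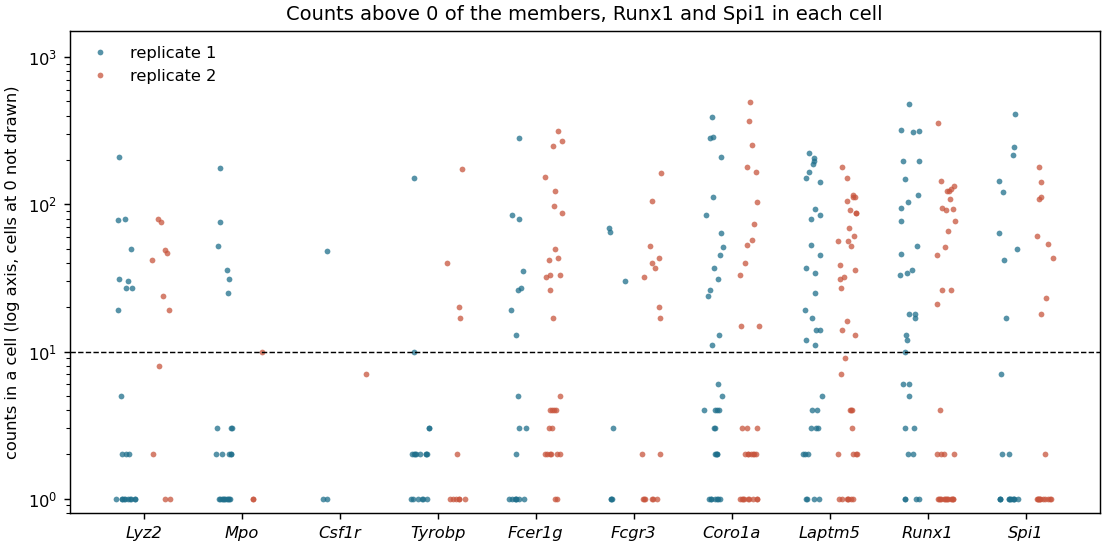
Counts of each member, *Runx1* and *Spi1* in every cell with a count, on a log axis, by library. The dashed line marks 10 counts, and of the 306 values above 0 of the members, 147 lie at 1 to 3 counts, 23 at 4 to 9 and 136 at 10 or more.

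Low counts were a feature of the same cells. The 8 detected members had 306 values above 0, of which 48.0% were at 1 to 3 counts, 7.52% at 4 to 9 and 44.4% at 10 or more, beside 36.6%, 10.3% and 53.1% of the 447117 such values of all genes. Cells with 1 to 9 counts carried 3.66% of the *Lyz2* counts of replicate 1 and 3.44% of those of replicate 2. They carried 2.797% and 1.70% of the *Coro1a* counts, 3.41% and 2.54% of *Fcer1g*, 6.82% of the *Mpo* counts of replicate 1, and 14.8% of the *Tyrobp* counts of replicate 1 against 3.08% in replicate 2.

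The number of low cells differed between the libraries, and not always in the direction of the high cells. *Mpo*, with 6 high cells in replicate 1, had 1 to 9 counts in 18 of the 37 other cells of that library (48.6%), and in replicate 2, whose only high cell held 10 counts, in 2 of 43 other cells (4.65%). For *Lyz2* these were 14 of 34 cells (41.2%) in replicate 1 and 4 of 37 (10.8%) in replicate 2, although the cells of replicate 2 were deeper. *Tyrobp*, with more high cells in replicate 2, had low counts in 16 of 41 and in 7 of 40 cells, and *Runx1*, with more in replicate 1, in 11 of 21 and in 18 of 27 cells. *Fcer1g*, with more counts in replicate 2, had them in 11 of 35 and 15 of 29 cells, of which 10 and 10 were at 1 to 3 counts. For each detected member, low cells had a higher median depth than cells at 0 in both libraries. For *Mpo* in replicate 1 their median was 278635 counts, against 71938 in the 19 cells at 0.

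Genes other than the members also had low counts. Genes with 90% or more of at least 200 counts in a single cell, 17 in replicate 1 and 6 in replicate 2, had a median of 2.87% and 3.003% of their counts in low cells, and a median of 5 and 17 low cells. The choice of these genes itself keeps that share of counts small, so it is no measured background for the members.

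The low counts of these single-cell genes were also read by the distance between barcodes, with no test. Barcodes of 8 bases differed at 4 or more positions within each library. In replicate 1, 15.6% of cells whose barcode differed from that of the high cell at 4 positions had a low count, and 10.4% of those that differed at all 8. In replicate 2 the shares were 37.5% and 60%, over 32 and 15 pairs of a gene and a cell. The deeper part of the cells, above the median, had a low count in 17.1% of pairs against 7.06% below it in replicate 1, and in 47.4% against 33.6% in replicate 2. Low expression in a cell and transcripts passed between barcodes of a library cannot be told apart by these counts. A low count of a member did not mark a cell where 10 or more counts were asked for. Low counts did enter the rank correlations, the CPM values and the sums.

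**Figure D4:**
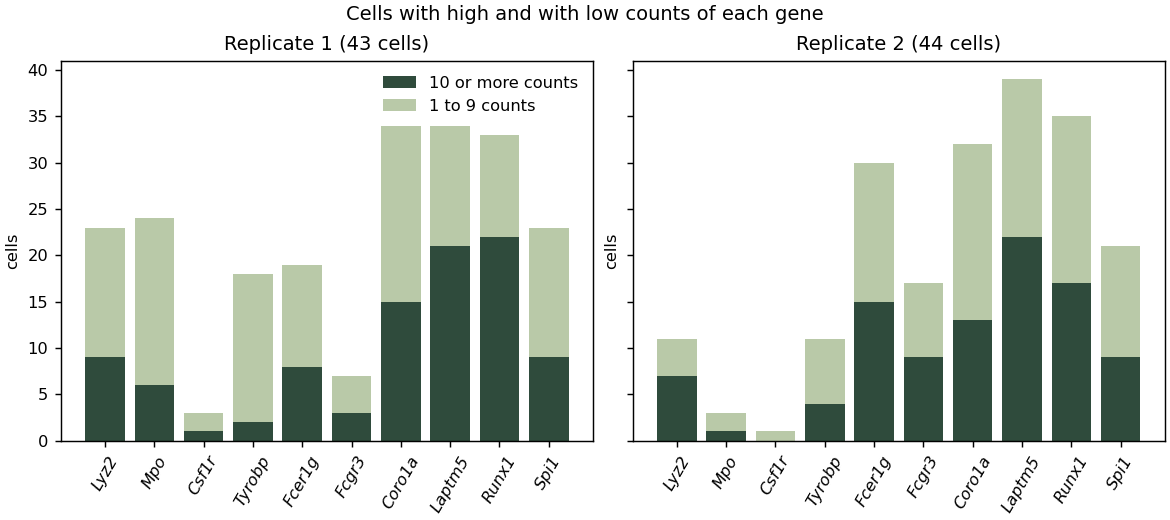
Number of cells with 10 or more counts (dark) and with 1 to 9 counts (light) of each detected member, *Runx1* and *Spi1* in replicate 1 (left, 43 cells) and replicate 2 (right, 44 cells). *Mpo* has 6 high and 18 low cells in replicate 1, and 1 high and 2 low cells in replicate 2.

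Genes other than the members were compared between the 24 cells of the myeloid-gene class and the 63 other cells, on counts summed per library and class, which gave 4 sums. The class was selected on counts of the members, so the members, *Runx1* and *Spi1* were left out of the test. Endothelial genes were lower and a small number of blood cell genes higher in the class in some of the fits. Without a library term, edgeR called 0 of 10590 genes (0%) at an adjusted p under 0.05, with 593 genes at an unadjusted p under 0.05, and DESeq2 called 121 of 13196 genes (0.917%), 29 higher (0.22%) and 92 lower (0.697%). With the library as a replicate block, edgeR called 241 of 10590 genes (2.28%), 54 higher (0.51%) and 187 lower (1.77%), of which 240 had the same direction in both libraries. DESeq2 called 81 of these 241 genes. Of the 14 endothelial genes called with the block it called 4, *Nrp1*, *Gja4*, *Cdh5* and *Flt1*. Of other list genes named below it called *Plek*, *Prtn3*, *Car2*, *Col1a1*, *Col1a2*, *Col3a1* and *Lum*, but not *Postn*, *Kit*, *Plcg2*, *Ikzf2*, *Maf*, *Id2*, *Mrc1* or *Fos*. With cells thinned to 20000 counts and the block, 67 of 6703 genes were called, 2 higher and 65 lower. The class was also set anew there, at 2 or more thinned counts of a member in place of 10 counts. It held 5 cells of replicate 1 and 9 of replicate 2, in place of 11 and 13, so depth and class changed together. *Kit*, *Plcg2*, *Ikzf2*, *Car2*, *Prtn3*, *Maf*, *Id2* and *Mrc1* did not pass with thinned cells. The log2 fold changes of *Kit* (1.73), *Plcg2* (1.57), *Car2* (2.05), *Mrc1* (-1.60) and *Id2* (-1.64) were close to those without thinning. Those of *Mrc1* and *Id2* lay mostly in replicate 1, at -4.20 and -5.26 with thinned cells, against -0.11 and -0.19 in replicate 2. Without thinning *Mrc1* was at -2.73 and -0.60 in replicates 1 and 2, and *Id2* at -2.77 and -0.60. *Maf* was further from 0 than without thinning, at -2.29, and *Ikzf2* (1.61) and *Prtn3* (4.33) were nearer to it. Of the 14 endothelial genes, 10 passed. The block leaves 1 residual degree of freedom. Its p-values rest on how far the class difference disagreed between these 2 libraries, with the spread estimated in part over all genes together. They cover these 2 libraries only. Calls and log2 fold changes below come from the fit with the block.

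Of 20 endothelial genes, 14 passed and were lower and none was higher, and all 20 had a lower value in the class in both libraries. The list had 2337 and 6298 CPM in the class in replicates 1 and 2, against 7906 and 14496 CPM in the other cells. *Gja5* and *Gja4*, connexin genes of arterial endothelium, had log2 fold changes of -3.98 (SE 0.36, adjusted p = 6.45e-25 by edgeR) and -3.65. *Nrp1*, a VEGF co-receptor gene, was at 61.4 and 244 CPM in the class and at 852 and 971 CPM in the other cells, and it fell by 2.87. *Kdr* fell by 1.12, *Cdh5* by 1.39, *Lyve1* by 1.55, *Stab2* by 1.56 and *Sox17*, an arterial transcription factor gene, by 3.23. *Cldn5*, *Flt1*, *Tek*, *Tie1*, *Egfl7* and *Ramp2* passed as well. The median log2 fold change of the list was -1.38, beside -0.04 over all genes tested.

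The values of this list depended on which member marked the cells. With the class set by *Lyz2* alone and the block, 169 of 10393 genes were called (1.63%), 11 of the 20 endothelial genes among them as lower, and the median of the list was -1.56 beside -0.17 over all genes. With the class set by *Fcer1g* alone, an alternative chosen after seeing the data, 14 of 10635 genes were called (0.132%), none of the 20 endothelial genes among them, and the median was -0.01 beside -0.16 over all genes. There the list went both ways without a gene passing, with *Lyve1* at 1.06 and *Kdr* at 0.50, and *Sox17* at -2.25, *Gja5* at -1.64 and *Nrp1* at -0.88. The difference between the 2 classes, which share 6 cells, was not tested.

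**Figure D5:**
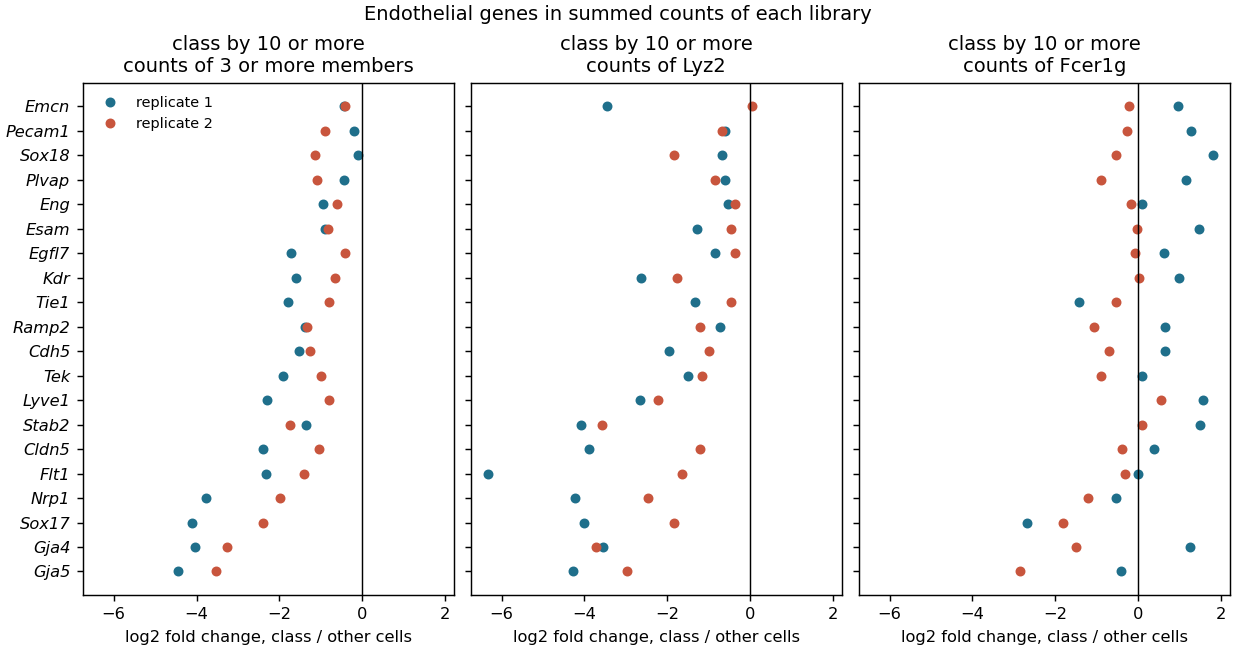
Log2 fold change of 20 endothelial genes between a class of cells and all other cells in each library, with the class set by at least 3 members (left), by *Lyz2* (middle) or by *Fcer1g* (right) at 10 or more counts. All 20 genes lie below 0 in both libraries in the left panel, and they spread to both sides of 0 in the right panel.

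Among leukocyte genes few passed. Of 26 pan-leukocyte genes, 25 had a row, 21 had a count and 20 were tested. *Plek*, a protein kinase C substrate gene, was higher, at a log2 fold change of 3.96 (SE 0.97, adjusted p = 0.004 by edgeR). It reached 10 counts in 10 of the 24 cells of the class and in 2 of the 63 other cells. The median of the list was 1.33, its sum 1563 and 1912 CPM in the class against 955 and 806 CPM in the other cells, and its most abundant gene *Arhgdib*. *Rac2*, a GTPase gene of blood cells, was at 82.6 and 120.7 CPM in the class and 55.7 and 5.63 CPM in the other cells and did not pass. *Prtn3* was the gene of the granulocyte and monocyte list that passed, of 3 tested, with 314 and 101 counts in the class against 6 and 1 in the other cells, and 10 or more counts in 5 cells. Of the 4 macrophage genes tested, *Mrc1* was lower, by a log2 fold change of -1.66, and none was higher.

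In the Fc receptor and ITAM pathway, 9 of 17 genes had a count and 6 were tested. *Plcg2*, the phospholipase that acts after ITAM adaptors, was higher at 1.66 (SE 0.33), with 659 and 224 CPM in the class and 186 and 81.2 CPM in the other cells. Of 9 tested myeloid cytokine receptor and ligand genes, *Kit* was higher at 1.89, with 294 and 164 CPM against 142 and 25.0 CPM. *Kit* was also the gene of the sort that passed, of 7. *Procr*, the gene of CD201, and *Cd44* did not, at -1.12 and -0.05. *Spn*, the gene of CD43, had 140 and 48 counts in the class and 12 and 2 in the other cells, and *Ptprc* had 14 and 43 counts in the class and 0 in the other cells, and neither passed. Of 20 tested hematopoietic and myeloid transcription factor genes, *Ikzf2* was higher at 2.22, and *Maf* and *Id2* were lower at -1.73 and -1.67. *Gfi1*, a repressor of endothelial genes, had 51.7 and 41.4 CPM in the class against 8.96 and 12.7 CPM and did not pass.

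Few genes of other lineages were called. Of 6 tested erythroid genes, *Car2*, a carbonic anhydrase gene, was higher at 1.88, while 8 of the 16 listed, *Gata1* and the adult globin genes *Hba-a1*, *Hba-a2*, *Hbb-bs* and *Hbb-bt* among them, were at 0 in all cells. None of 6 megakaryocyte genes, 1 mast cell and basophil gene, 3 lymphoid genes and 2 visceral endoderm genes tested was called. Of 16 stress response genes, *Fos* was lower at -1.16. Of 8 tested mesenchymal genes, 5 were lower, *Col1a1*, *Col1a2*, *Col3a1*, *Lum* and *Postn*. Outside the class, 2 cells of replicate 1 and 1 cell of replicate 2 held 96.3% and 94.3% of the *Col1a1* counts of their libraries. *Col1a2* also reached 10 counts in 4 cells of the class. The mesenchymal list had 1594 and 627 CPM in the other cells and 140 and 58.2 CPM in the class, with *Col1a2* most abundant and *Mfap4* at 0. Without these cells and with the block, 220 of 10491 genes were called, 213 of them also with the cells, and of the mesenchymal list none was called, while the 14 endothelial genes were.

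The 10 genes with the largest higher calls were *Slco4a1*, *Prtn3*, *Nln*, *Acyp1*, *Plek*, *Tspan32*, *Samsn1*, *Sdad1*, *Slc7a6* and *Cited1*, with log2 fold changes from 3.10 to 7.60 and adjusted p from 1.1e-06 to 0.046 by edgeR. They rested on part of the class, with 10 or more counts in 5 to 13 of its 24 cells and in 0 to 7 of the 63 others, and their highest cell held 14.8% to 45.0% of the counts in the class. DESeq2 did not call *Nln*, *Sdad1* and *Slc7a6*. None of the 10 passed with the class set by *Lyz2* alone and the block, where their log2 fold changes ran from -0.48 (*Plek*) to 3.82 (*Prtn3*), with *Slco4a1* at 0.05. With thinned cells and the block, *Slco4a1* and *Plek* were not fitted. None of the others passed there, at log2 fold changes from 0.41 (*Sdad1*) to 4.33 (*Prtn3*). *Samsn1*, an adaptor gene of blood cells, had 288 and 112 CPM in the class and 11.9 and 27.6 CPM in the other cells. *Tspan32*, a tetraspanin gene of blood cells, had 157 and 72.9 CPM against 15.5 and 5.21 CPM. *Slco4a1*, an organic anion transporter gene, had 344 counts in the class and 2 in the other cells.

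The 10 with the largest lower calls were *Dkk2*, *Epha4*, *Ppp1r14a*, *Col14a1*, *Ace*, *Wfdc1*, *Vcan*, *Tinagl1*, *Adgrg6* and *Mmp15*. They had 10 or more counts in at most 1 cell of the class and in 3 to 20 of the other cells, so they mark part of the latter. Without the 3 collagen cells and with the block, 40 of the 48 named genes passed. The rest were the 5 mesenchymal genes and some of these 10, while *Dkk2* and *Epha4* passed. *Adgrg6*, an adhesion receptor gene, reached 10 counts in 18 of the other cells and *Tinagl1*, a matrix protein gene, in 20. *Vcan*, which encodes versican, was in 3 of the other cells, with 69.1% of its counts there in 1 cell. The direction of *Dkk2* turned with at least 2 members, to 0.74 and, with the block, 2.17. That of *Mmp15* turned with a class set by *Fcer1g*, to 1.59 and, with the block, 0.64.

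Sequences before the transcription start are printed for 4 members, the enzyme genes *Lyz2* and *Mpo* and the receptor genes *Fcer1g* and *Fcgr3*. They are the 250 bases before the start in the RefSeq promoter table (GRCm38.p6), in which 9 of the 12 genes matched, with 12 entries. *Csf1r*, *Tyrobp* and *Spi1* had no entry. Searched on both strands were a PU.1 core (GAGGAA), a Runx core (TGTGGT) and a C/EBP core (TTGCNNAA). They do not overlap in the sequences printed, and capitals mark each match, in the orientation of the gene. Of all 32851 windows of this length, 23.3% held the first, 14.05% the second and 9.56% the third.
Lyz2, chr10:117282273-117282522 (minus strand): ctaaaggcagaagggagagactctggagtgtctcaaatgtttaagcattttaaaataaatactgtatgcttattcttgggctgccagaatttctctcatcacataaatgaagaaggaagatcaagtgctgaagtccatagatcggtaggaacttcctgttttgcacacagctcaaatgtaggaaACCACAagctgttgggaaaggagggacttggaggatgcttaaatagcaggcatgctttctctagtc
Mpo, chr11:87793534-87793783 (plus strand): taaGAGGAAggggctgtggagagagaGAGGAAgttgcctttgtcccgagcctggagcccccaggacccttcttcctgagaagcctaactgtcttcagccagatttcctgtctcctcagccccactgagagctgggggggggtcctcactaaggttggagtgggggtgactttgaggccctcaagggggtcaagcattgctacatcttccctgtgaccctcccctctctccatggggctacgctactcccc
Fcer1g, chr1:171234350-171234599 (minus strand): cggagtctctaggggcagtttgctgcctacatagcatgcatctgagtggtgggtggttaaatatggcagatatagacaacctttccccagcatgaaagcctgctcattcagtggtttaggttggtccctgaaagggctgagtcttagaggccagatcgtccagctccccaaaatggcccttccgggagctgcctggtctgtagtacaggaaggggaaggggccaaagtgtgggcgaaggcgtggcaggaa
Fcgr3, chr1:171059404-171059653 (minus strand): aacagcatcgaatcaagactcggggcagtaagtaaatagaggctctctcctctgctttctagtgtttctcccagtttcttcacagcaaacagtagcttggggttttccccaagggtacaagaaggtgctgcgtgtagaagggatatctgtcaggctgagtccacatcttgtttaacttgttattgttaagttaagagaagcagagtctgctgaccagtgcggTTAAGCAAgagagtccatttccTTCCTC
The *Lyz2* window held a Runx core that began 66 bases before the start, and the *Mpo* window held the PU.1 core at 247 and 224 bases. The *Fcgr3* window held the PU.1 core at 6 bases and the C/EBP core at 28 bases, and the *Fcer1g* window held none of the 3. Of the other genes, the *Laptm5* window and 1 of 2 *Runx1* windows held the PU.1 core, and the *Cx3cr1* window, of a gene with no count here, held the Runx core. A match shows the letters and not a bound site.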

How the data were processed

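Counts of 87 cells in 2 libraries were used. The authors split reads by cell barcode, aligned them with HISAT2 2.1.0 to mm10, counted uniquely mapped reads with HTSeq and removed duplicates by UMI, and the deposited counts per gene and cell are not normalized. The authors describe keeping cells with more than 2000 genes, but 1 cell of replicate 1 in the deposited counts has 1941. Every cell in the files was used. Doublets were not called, since cells were picked by hand. Gene symbols were found in GENCODE M21 for 22124 of 23154 rows. The barcode table was read only for distances between barcodes.

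CPM are counts scaled to a common total for each cell or sum. The 95% intervals of cell shares are Clopper-Pearson, and intervals and limits from 3 counts cover counting error only. Sums per library and class went through edgeR 4.0.16 under R 4.3.3, with TMM factors after filterByExpr, a quasi-likelihood test and p adjusted by Benjamini-Hochberg at 0.05. DESeq2 1.42.0 was an alternative. SEs were derived from the F statistic. The edgeR fit was first tested on simulated data. These had the same dispersion for every gene and no difference between libraries other than total counts. They therefore do not show how the fit behaves on the spread of these libraries. Both sums with a given replicate number are from 1 library, so the number pairs them. Deviations of paired sums from their class means had a correlation of 0.198 over 10599 genes, and genes are not replicates. Other values came from Python 3.11.15 (numpy 2.4.6, scipy 1.17.1, pandas 2.3.3), and figures from matplotlib 3.10.9.

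The members and gene lists were chosen with earlier results of these data known. Named genes were the members, *Runx1* and *Spi1*, list genes that passed or led their list, the 10 largest calls each way with the same direction in both libraries (from the fit with the block, since fewer than 5 were called without it) and the 10 genes most like *Lyz2*. Other genes were named after their values were seen.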

Additional observations from a re-analysis of the deposited data

How the results depend on the processing

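The number of genes that differed between the myeloid-gene class and the other cells depended on the fit. It was 0 with edgeR without a library term, and also with RLE size factors, at least 4 members, *Lyz2* alone, 50 CPM, thinned cells or without collagen cells, and 1 with at least 2 members. It was 241 with the library as a replicate block, 121 with DESeq2 and 107 without the low-count filter. Alternatives chosen after seeing the data added the block to other classes and gave 225 genes with at least 2 members, 141 with at least 4, 169 with *Lyz2*, 14 with *Fcer1g*, 183 at 50 CPM, 67 with thinned cells (2 higher, 65 lower) and 220 without the 3 collagen cells. With thinned cells the class was also set anew, at 2 or more thinned counts, and held 5 and 9 cells in place of 11 and 13. Depth and class changed together there, and 6703 genes were tested. The cause of these differences was not tested. Leaving out a library leaves no residual degree of freedom, so the number of genes was not counted there.

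None of 48 named genes passed in the edgeR fit without the block that the alternatives are set against. Of their 946 alternative values, 648 kept the direction without passing, 96 of them from leaving out a library, where no test was run, 270 kept the direction and passed, and 28 reversed. With a class set by *Fcer1g*, without and then with the block, *Prtn3* was at -1.57 and -1.77, *Ikzf2* at -0.95 and -0.58, *Mmp15* at 1.59 and 0.64, and *Mrc1* at 0.76 and 0.77. In the same way *Maf* was at 1.43 and 1.74, *Kdr* at 0.46 and 0.50, *Egfl7* at 0.19 and 0.27, *Lyve1* at 1.06 and 1.06, and *Stab2* at 0.47 and 0.79, while *Cldn5* was at 0.00109 with the block. With *Lyz2*, *Cited1* was at -0.23 and -0.0914, and *Plek* at -0.48 with the block. With at least 2 members, *Dkk2* was at 0.74 and 2.17 and *Egfl7* at 0.13 and 0.0947. For these genes the cause was not tested. Without the collagen cells *Col1a2* was at 0.36 and *Postn* at 0.11, where the 3 cells with most of the *Col1a1* counts were left out, and the cause was not tested.

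The share of *Lyz2* cells with *Runx1* stayed between 85.7% and 88.9%. The share with *Spi1*, 68.8% at 10 counts, was 57.1% at 20 counts and 60% at 50 CPM, and the cause was not tested. Low cells held 3.58% of *Lyz2* counts, and 2.17% when low meant 1 to 4 counts, a narrower range by construction. For *Mpo* they held 7.09%, with 6.82% in replicate 1 and 16.7% in replicate 2, which had 12 counts. For genes with 90% of their counts in 1 cell the median was 2.87% in replicate 1 and 3.003% in replicate 2, 1.83% at 1 to 4 counts and 0.223% for genes with 99% in 1 cell, the last 2 narrower by construction. The choice of genes by their share in 1 cell itself keeps all of these values small.

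Depth limits what a 0 means. In replicate 1 the cells outside the class had a median of 98687 counts, against 352725 in the class, and 0 counts over both libraries set a limit of 0.139 CPM.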
